A study of Canis lupus familiaris with 10 samples.

Results

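The genes described are those of the interferon regulatory factor (IRF) family, measured by QuantSeq 3′ RNA-Seq in early and late canine cutaneous histiocytoma (CCH). This benign tumor of young dogs arises in the skin from the Langerhans cell lineage and often regresses on its own. A list of 7 family genes was matched by symbol to the 23266 genes of the deposited table. Of these, 6 were found, namely IRF1, IRF2, IRF3, IRF5, IRF8 and IRF9, and all 6 passed the filter on low values, while IRF7 was not analysed here. The 10 libraries came from formalin-fixed, paraffin-embedded (FFPE) skin tumors of 10 pet dogs. Early CCH is group 1 of the histological scheme of Cockerell and Slauson (5 libraries, ages given for 4 dogs, from 0.5 to 5 years). Late CCH is group 3 of that scheme, with tumors labeled as enriched in lymphocytes (5 libraries, 1.5 to 9 years). Both groups held several breeds and both sexes, and no treatment or engineered allele is named for either. RNA came from entire cross sections after removal of tissue next to the tumor, so each value is an average over tumor cells, infiltrating cells and stroma.

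IRF proteins are transcription factors that share a tryptophan-rich DNA-binding domain and bind interferon-stimulated response elements. IRF3, IRF5 and IRF7 rest in the cytoplasm until kinases downstream of pathogen sensors phosphorylate them. IRF9 is the DNA-binding subunit of ISGF3, the complex that carries the signal of type I interferons, whereas IRF1 is itself induced by interferon gamma and activates antigen presentation genes. IRF2 binds the same sites as IRF1 and mostly opposes it, and IRF8 directs the development of dendritic cells, monocytes and B cells together with partners such as SPI1 (PU.1).

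IRF1 and IRF8 had the largest differences between the stages, with mean normalized read counts 2.14 and 2.59 times as high in late as in early CCH. IRF3 was 1.37 times as high and IRF2 1.29 times, whereas IRF5 and IRF9 stood at 0.784 and 0.873 of their early level. None of the 6 genes was called by limma at an adjusted p of at most 0.05 (Benjamini-Yekutieli, BY, over the 12397 genes tested) together with a change of 1 or more, up or down, on the log2 scale (log2FC). Over all genes tested, 2.17% were called, with 1.06% in the direction of late CCH and 1.11% in that of early CCH. Without adjustment, 3 of the 6 members (IRF1, IRF3 and IRF8) had a p of at most 0.05, as did 30.9% of all genes tested. With Benjamini-Hochberg (BH) adjustment of the same fit, 2 members (IRF1 and IRF8) were called higher, against 5.53% of all genes. The DESeq2 Wald test on recovered reads with BY adjustment called the same 2 members higher, against 3.87% of all genes, and the edgeR quasi-likelihood test with BY adjustment called none, against 0.653%. With BH adjustment, edgeR and DESeq2 both called IRF1 and IRF8 higher, against 5.02% and 6.32% of all genes. The median log2FC of the 6 members was 0.41 and that of all genes tested was -0.0037.

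The measured libraries differed beyond the family, and these differences accompany every comparison here. Totals of reads assigned to genes lay between 2973125 and 4439709, and each member had at least 142 reads in every library. The summed T-cell markers (8 genes, among them CD3D, CD3E and LCK) ran from 60.9 to 2168 in early and from 3813 to 5337 in late libraries, with no overlap. The 7 B-cell markers summed to between 51.5 and 238 in early and between 417 and 2320 in late libraries. Langerhans and dendritic cell markers (6 of 7 genes measured, without CD207) summed to between 475 and 1105 in early and between 234 and 477 in late libraries. Of these 6 genes, 3 were lower in late CCH without overlap, beside 6.05% of all genes tested. In the other direction 1 was higher without overlap, beside 5.91%. Estimates ran from a log2FC of -3.80 for CD1A8 to 2.38 for CCR7 (limma), both named after their values were seen. Fewer or more cells of a type and less or more RNA per cell cannot be told apart in such bulk samples. RNA quality (DV200 by the labels, the share of RNA fragments above a set length) was 68.5% ± 2.46 in early and 73.2% ± 2.09 in late samples (SD, n = 5 each), and the study lists separate extraction batches for the stages, so that stage and batch cannot be told apart.

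IRF1, the activator of antigen presentation genes downstream of interferon gamma, was the most abundant member by mean in both stages. QuantSeq 3′ yields 1 fragment per transcript, so levels of different genes were compared without division by length. Its normalized read counts in early libraries 1 to 5 were 399.8, 1428, 1212, 995 and 660, and in late libraries 1 to 5 they were 2343, 1596, 2195, 1593 and 2342. Every late library lay above every early library, as for 5.91% of all genes tested, but the early libraries spread 3.57-fold among themselves and the late ones 1.47-fold. The means were 939 ± 414 in early and 2014 ± 387 in late CCH (SD, n = 5 each), with log2FC 1.21 ± 0.30 (SE, limma, 95% interval 0.56 to 1.87, BY-adjusted p = 0.188). The exact two-sided permutation test of the log2 values gave an unadjusted p of 0.00794, the smallest that 5 against 5 libraries allow. DESeq2 gave a log2FC of 1.10 (BY-adjusted p = 0.0420) and edgeR 1.12 (BY-adjusted p = 0.275). The 2 early libraries lowest in IRF1, numbers 1 and 5, were also lowest in the T-cell marker sum, with 60.9 and 232. Early library 2, highest in IRF1, had a T-cell sum of 690, below the 2168 of early library 3. The part of T-cell content in the difference of IRF1 was not tested.

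**Figure D1:**
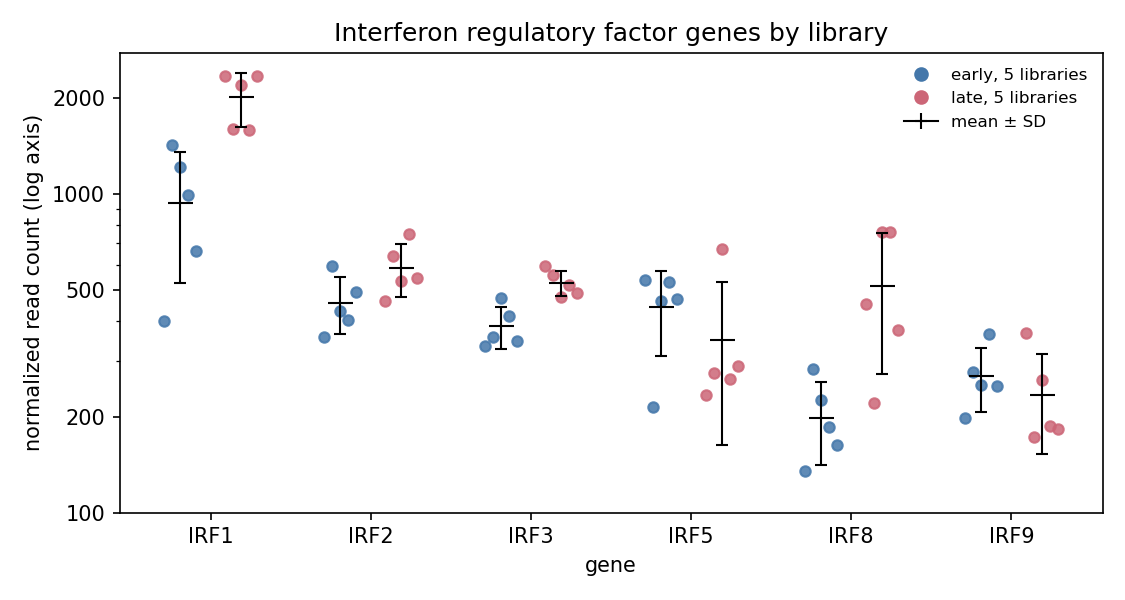
Normalized read count (log axis) of the 6 IRF genes in each of 5 early and 5 late libraries, points in library order from left to right, with mean ± SD. Late IRF1 values sit between 1593 and 2343, all above the early ones, and 4 of 5 late IRF8 values sit above the early maximum of 283.

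IRF8, the factor of dendritic cell, monocyte and B-cell development, had the lowest mean of the family in early CCH. Early libraries 1 to 5 held normalized read counts of 135, 283, 226, 185 and 163. Late libraries 1 to 5 held 452, 221, 762, 759 and 374, so that 4 of 5 lay above every early library while late library 2 fell within the early range. The means were 198 ± 57.7 and 514 ± 240 (SD, n = 5 each), with log2FC 1.27 ± 0.33 (SE, limma, 95% interval 0.56 to 1.98, BY-adjusted p = 0.217). The exact two-sided permutation p was 0.0238, unadjusted. DESeq2 gave a log2FC of 1.38 (BY-adjusted p = 0.00948) and edgeR 1.39 (BY-adjusted p = 0.177). Without late library 2 the limma log2FC was 1.54 (BY-adjusted p = 0.0952), and without late library 3 it was 1.09 (BY-adjusted p = 0.441).

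The late libraries also differed among themselves in IRF8, 3.45-fold from lowest to highest, more than the 2.09-fold of the early ones. Late libraries 3 and 4, highest in IRF8, had the highest B-cell marker sums, 2320 and 830, against 417 to 477 in the other late libraries. The macrophage markers (7 genes, among them CD68 and CD163) summed to between 1971 and 5488 in early and between 2425 and 3838 in late libraries, and late library 3 had the lowest late sum. Single macrophage markers were split, 5 with a log2FC above 0 and 2 below, from MSR1 (2.245) to MRC1 (-0.88, limma). Of the 7, 2 were higher in late CCH without overlap, beside 5.91% of all genes tested. Plasmacytoid dendritic cell markers (2 of 4 genes measured) ranged from 94.9 to 368 in early and from 324 to 787 in late libraries, the highest in late library 4. Late library 2, the lowest late one in IRF8, had the next highest sum, 624, above the 574 of late library 3. Nearly all of the plasmacytoid sum was TCF4 (means of 179 and 527), which other cell types express as well, since IL3RA had means of 4.78 and 8.64 and was below the filter on low values. The part of these cells in the level of IRF8 was not tested.

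IRF3, the factor activated by TBK1 downstream of nucleic acid sensors, showed a smaller and tighter difference. Its early normalized read counts were 333, 355, 473, 415 and 346 and its late ones 594, 556, 476, 517 and 489, in library order. The groups did not overlap, though early library 3 (473) and late library 3 (476) nearly met. The means were 384 ± 58.7 and 526 ± 48.3 (SD, n = 5 each), with log2FC 0.46 ± 0.14 (SE, limma, 95% interval 0.16 to 0.76, BY-adjusted p = 0.418; exact permutation p = 0.00794, unadjusted). Of the 6 members, 2 (IRF1 and IRF3) had late values all above the early ones, beside 5.91% of all genes tested, and 0 had late values all below the early ones, beside 6.05%.

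IRF2, the factor that shares its binding sites with IRF1, overlapped between the stages. Early libraries 1 to 5 had normalized read counts of 357, 595, 431, 402 and 493, and late libraries 1 to 5 had 460, 639, 535, 747 and 545. Only late libraries 2 and 4 exceeded every early library. Its log2FC was 0.36 ± 0.17 (SE, limma, 95% interval -0.01 to 0.74, BY-adjusted p = 1; exact permutation p = 0.0794). IRF1 exceeded IRF2 in each of the 10 libraries, on the log2 scale by 0.93 ± 0.59 in early and 1.78 ± 0.54 in late CCH (SD, n = 5 each), and these differences overlapped between the stages.

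IRF5, which carries Toll-like receptor signals in myeloid and B cells, had one discordant library in each stage. Its early normalized read counts were 539, 215, 463, 528 and 468, and its late ones 235, 275, 674, 263 and 290. Early library 2 thus lay below every late library, and late library 3 lay above every early library. The log2FC was -0.40 ± 0.31 (SE, limma, 95% interval -1.08 to 0.28, BY-adjusted p = 1; exact permutation p = 0.254). It was -0.64 without early library 2 and -0.67 without late library 3, neither of which was called. Early library 2 also had the highest macrophage marker sum, 5488 against 1971 to 3237 in the other early libraries, and the lowest early Langerhans and dendritic cell sum, 475. Late library 3 had the highest B-cell sum and the lowest cytotoxic lymphocyte sum (5 of 6 genes) among late libraries, 2962 against 5901 to 7852. How these sums bear on IRF5 was not tested.

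IRF9, the DNA-binding subunit of ISGF3, had the lowest mean in late CCH. Early libraries 1 to 5 held 198, 277, 252.4, 364 and 249 normalized read counts, and late libraries held 366, 172, 261, 187 and 184. The highest and the lowest values of all 10 libraries were both late, in libraries 1 and 2. The log2FC was -0.23 ± 0.23 (SE, limma, 95% interval -0.73 to 0.27, BY-adjusted p = 1; exact permutation p = 0.333). This interval holds no log2FC of 1 or -1.

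**Figure D2:**
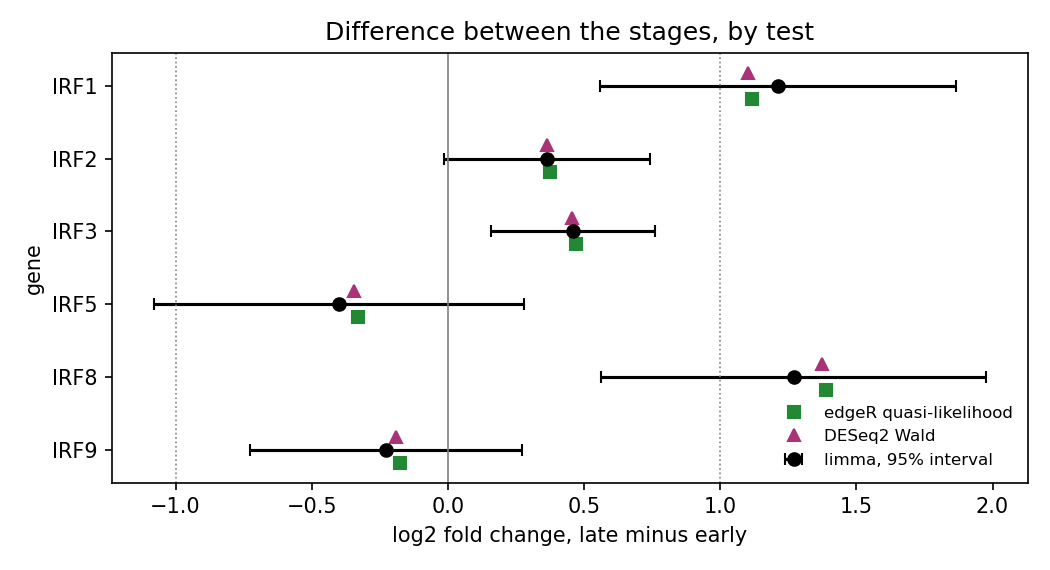
log2 fold change, late minus early, of the 6 members (rows) from limma with its 95% interval (black points), from edgeR (green squares) and from DESeq2 (purple triangles), with dotted lines at log2FC values of -1 and 1. The point estimates of IRF1 and IRF8 lie beyond 1 with each of the 3 tests, and those of the other members lie within 1.

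The order of the levels within the family differed between the stages. In early CCH, IRF1 led with a mean of 939, followed by IRF2 (455), IRF5 (443), IRF3 (384), IRF9 (268) and IRF8 (198). IRF1 was above IRF2 in 5 of 5 early libraries and above IRF5 in 4 of 5, with IRF5 highest in early library 1. IRF3 was above IRF9 in 5 of 5. IRF2, IRF5 and IRF3 changed places from library to library, with IRF2 above IRF5 in 2 of 5 and above IRF3 in 3 of 5, and did not differ beyond their spread. In late CCH the order of means was IRF1 (2014), IRF2 (585), IRF3 (526), IRF8 (514), IRF5 (347) and IRF9 (234). There IRF2 was above IRF8 in 3 of 5 libraries and IRF3 above IRF8 also in 3 of 5, so that these 3 genes did not differ beyond their spread. IRF8 was above IRF9 in 1 of 5 early and 5 of 5 late libraries, a log2 ratio of -0.45 ± 0.39 in early and 1.05 ± 0.74 in late CCH (SD, n = 5 each). The ratio of IRF8 to IRF9 did not overlap between the stages, nor did that of IRF1 to IRF9 (1.70 ± 0.59 and 3.14 ± 0.36). Ratios of all pairs of members were formed, and these were the only ones without overlap, picked after the values were seen. Of all genes tested, 5.3% had a ratio to IRF9 that was higher in late CCH without overlap.

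As shares of the summed count of the 6 genes, IRF1 made up 33.5% ± 9.78 in early and 47.6% ± 6.49 in late CCH, and IRF8 7.30% ± 0.995 and 11.9% ± 5.04 (SD, n = 5 each). IRF5 made up 17.5% ± 7.49 and 8.06% ± 3.32, with overlap at early library 2 (6.82%) and late library 3 (13.7%). IRF9 had the only share without overlap, from 8.25% to 12.6% in early and from 4.35% to 8.22% in late libraries. The summed count of the family itself ran from 1962 to 3153 in early and from 3459 to 4903 in late libraries. Divided by this sum, 22.9% of all genes tested were lower in late CCH without overlap, so that the position of IRF9 is a frequent one among genes.

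**Figure D3:**
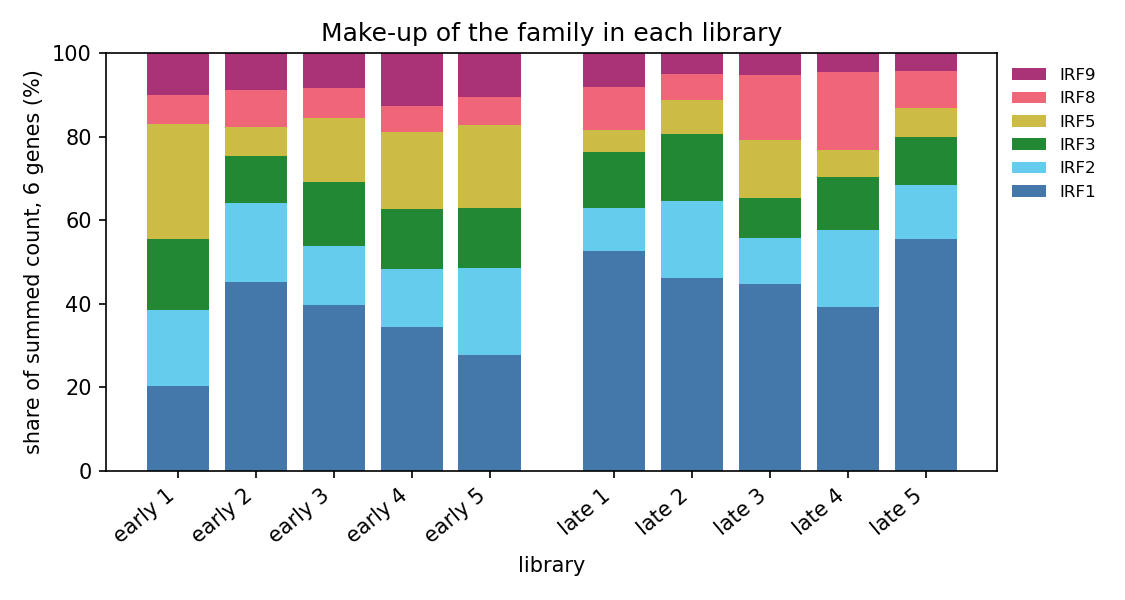
Share of each gene (colors) in the summed normalized read count of the 6 IRF genes, in percent, 1 bar per library. The share of IRF1 runs from 20.4% to 45.3% in early and from 39.2% to 55.5% in late libraries, and that of IRF9 does not exceed 8.22% in late libraries.

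Since IRF1, IRF5 and IRF8 are well expressed in leukocytes, the members were also set against PTPRC, the gene of the pan-leukocyte protein CD45. PTPRC itself had normalized read counts of 2488 ± 403 in early and 2730 ± 222 in late CCH (SD, n = 5 each, log2FC 0.15, 95% interval -0.17 to 0.46, BY-adjusted p = 1, limma). The T-cell marker sum had means of 933 and 4502, so PTPRC did not follow it and the ratio does not adjust for lymphocyte content. Which cells held PTPRC, tumor cells among them, was not tested. The log2 ratio of IRF1 to PTPRC was -1.53 ± 0.58 in early and -0.46 ± 0.33 in late CCH. For IRF8 it was -3.67 ± 0.36 and -2.55 ± 0.74. Both overlapped between the stages, IRF1 through early library 2 (-0.74) and IRF8 through late library 2 (-3.58). The ratio of IRF3 was the only one without overlap, by a narrow margin, with -2.69 ± 0.16 and -2.37 ± 0.09 (SD, n = 5 each), as was true in the same direction for 4.11% of all genes tested.

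**Figure D4:**
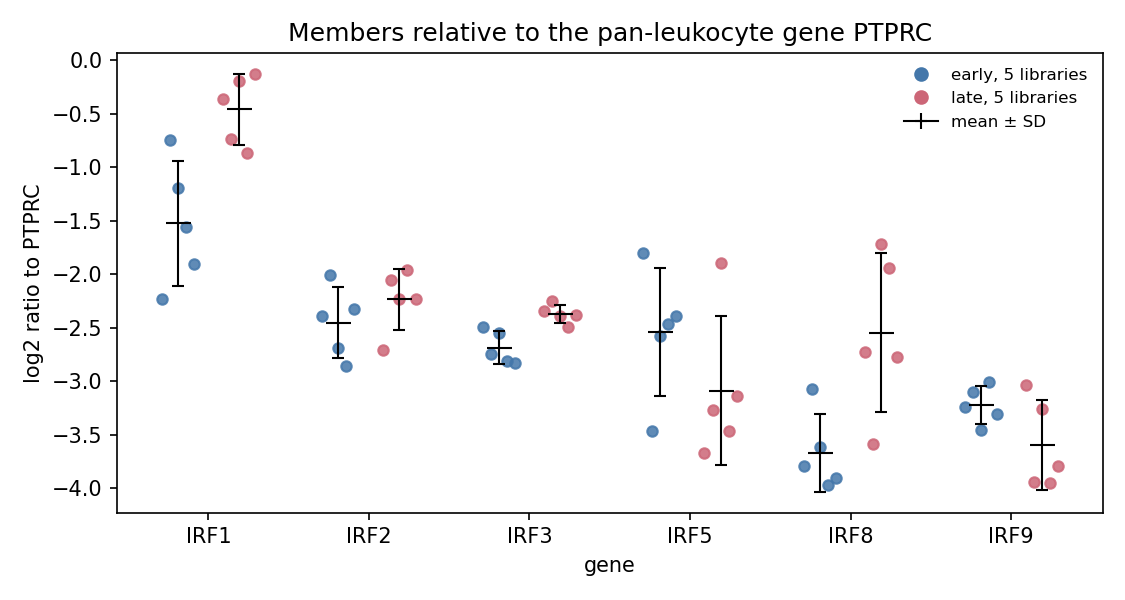
log2 ratio of each IRF gene to PTPRC in each of 5 early and 5 late libraries, with mean ± SD. Late IRF1 ratios lie from -0.87 to -0.13 and early ones from -2.23 to -0.74, with an overlap at early library 2.

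Outside the list of members, IRF4, a factor of plasma cells and activated lymphocytes, had 281 ± 132 normalized read counts in early and 282 ± 34.8 in late CCH (log2FC 0.14 ± 0.29, SE, limma, BY-adjusted p = 1). The corepressors IRF2BP2 and IRF2BPL, which bind IRF2, had log2FC values of -0.33 and -0.40 and were not called, and IRF2BP1 was below the filter on low values.

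Upstream of IRF3, IRF5 and IRF7 stand pathogen sensors, their adaptors and kinases. Of 19 such genes tested none was called by limma, beside 2.17% of all genes tested. At the late stage 3 stood higher and 4 lower at an unadjusted p of at most 0.05, which 30.9% of all genes tested had in either direction. The list had a median log2FC of 0.15. TLR8, a sensor of single-stranded RNA, had the highest value with log2FC 2.11 ± 0.42 (SE, limma, BY-adjusted p = 0.0746), from 18.4 ± 12.7 to 75.8 ± 26.9 normalized read counts. The lowest value was that of MB21D1, which encodes the DNA sensor cGAS, at log2FC -0.93 ± 0.26 (SE, limma, BY-adjusted p = 0.296). Estimates of both signs stood side by side in this list, 10 above and 9 below 0.

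Interferon receptor signaling upstream of IRF1 and IRF9 comprised 10 genes tested. Of these, 1 was called, in the direction of late CCH, beside 1.06% of all genes tested in that direction. At an unadjusted p of at most 0.05, 5 were higher and 1 lower, beside 30.9% of all genes tested in either direction. The lower gene, named after its values were seen, was IFNGR1, a subunit of the interferon gamma receptor, with normalized read counts of 340 ± 188 in early and 148 ± 63.5 in late CCH (SD, n = 5 each; log2FC -1.07 ± 0.47, SE, limma, BY-adjusted p = 1). IFNAR2, a subunit of the type I interferon receptor, rose, and its normalized read count was 30 ± 10.2 in early and 105 ± 14.4 in late CCH (SD, n = 5 each), with log2FC 1.83 ± 0.26 (SE, limma, BY-adjusted p = 0.0194). Its call was lost without early library 5 (BY-adjusted p = 0.0707) or without late library 1, 2 or 4 (BY-adjusted p = 0.0604, 0.0676 and 0.0647, limma), with log2FC values between 1.76 and 1.86. The median of the list was 0.43. STAT2, a partner of IRF9 in ISGF3, had 251 ± 102 and 366 ± 34.7 (log2FC 0.65 ± 0.27, SE, BY-adjusted p = 1, limma). Among the binding partners of IRF8 and coactivators, 0 of 8 genes tested were called, beside 2.17% of all genes tested. At an unadjusted p of at most 0.05, 2 were higher and 2 lower, and the median was -0.08. The list ranged from ETV6 with a log2FC of 1.19 to BATF3 with -1.06. SPI1, the partner of IRF8 in myeloid cells, had 2012 ± 399 and 1480 ± 207 normalized read counts (log2FC -0.43 ± 0.17, SE, BY-adjusted p = 1, limma), so that its estimate pointed the other way from that of IRF8.

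Genes linked to IRF1, IRF9 or IRF8 were examined as 3 lists, and direct regulation by these factors was not tested. Counts of called genes stand here beside 2.17% of all genes tested in either direction. Those at an unadjusted p of at most 0.05 stand beside 30.9%, also in either direction. Of 14 IRF1-linked targets, 0 were called by limma, while 8 were higher and 0 lower at an unadjusted p of at most 0.05, and their median log2FC was 0.75. The highest was IDO1, the tryptophan-degrading enzyme, with normalized read counts of 15.0 ± 17.2 in early and 187 ± 110 in late CCH (SD, n = 5 each; log2FC 4.21 ± 0.78, SE, limma, BY-adjusted p = 0.0526). Its lowest early value, 0.952, lay below the value that 3 reads correspond to, so the size of this log2FC is uncertain. The lowest of the list was PSMB9, a subunit of the immunoproteasome, with a log2FC of -0.26. Of 26 IRF9-linked antiviral genes, 0 were called, 5 were higher and 0 lower at an unadjusted p of at most 0.05, and the median was 0.37. BST2, the tethering factor of enveloped viruses, led them with 231 ± 165 and 876 ± 80.6 (log2FC 2.47 ± 0.61, SE, BY-adjusted p = 0.186, limma), and RSAD2 was lowest with a log2FC of -0.43. Of 9 IRF8-linked myeloid and B-cell genes, 1 was called, and 3 were higher and 1 lower at an unadjusted p of at most 0.05. CYBB, the catalytic subunit of the phagocyte NADPH oxidase, rose as well, its normalized read count being 198 ± 78.2 in early and 1041 ± 441 in late CCH (SD, n = 5 each), with log2FC 2.38 ± 0.31 (SE, limma, BY-adjusted p = 0.0130), and the median of that list was 0.39. CYBB stayed called when any single library was left out. Of 7 negative regulators, 0 were called, 2 were higher and 0 lower at an unadjusted p of at most 0.05, and the median was 0.27. SOCS1 was highest, with normalized read counts of 35.3 ± 29.5 in early and 110 ± 27.3 in late CCH (SD, n = 5 each; log2FC 2.23 ± 0.70, SE, limma, BY-adjusted p = 0.492). Its groups overlapped, and its lowest early value, 1.90, lay below the value that 3 reads correspond to.

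**Figure D5:**
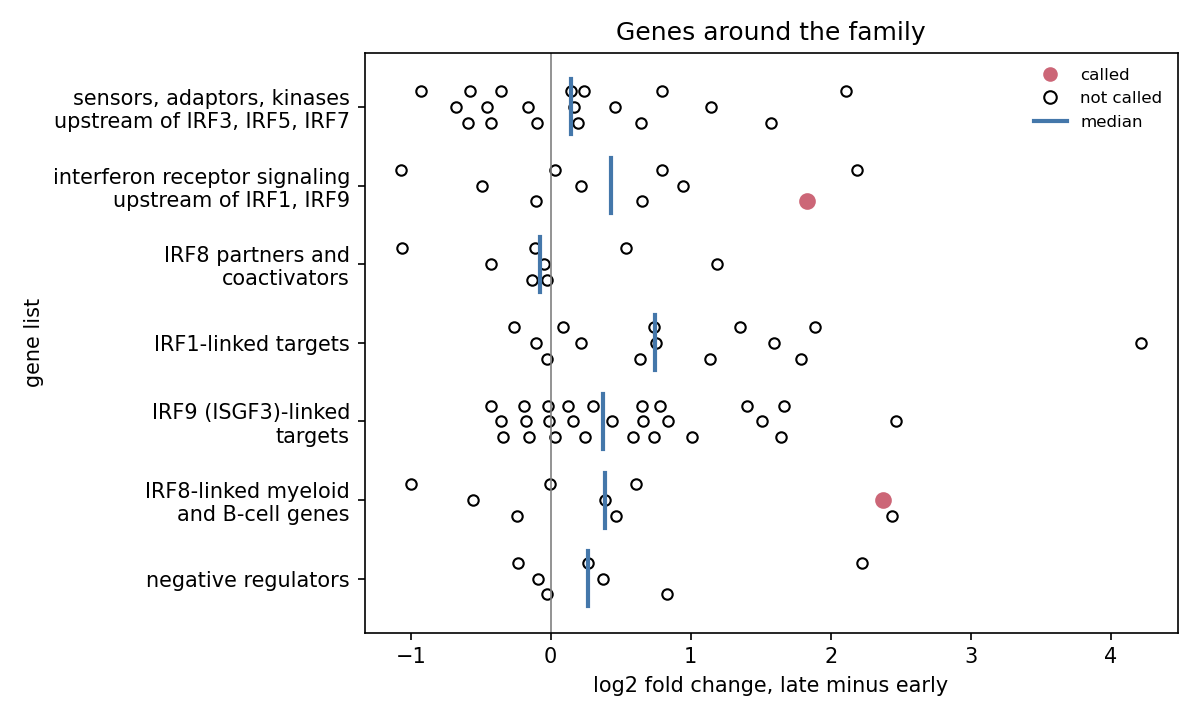
log2 fold change, late minus early, of each gene tested in 7 lists around the IRF family, with called genes filled in red, other genes open and list medians as blue lines. IFNAR2 (1.83) and CYBB (2.38) are the 2 called genes, and the median of the IRF1-linked targets lies at 0.75.

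The genes of nearest profile were taken by the Euclidean distance of log2 values, centred on each gene's mean, over the 10 libraries. Among those of IRF1 were ICAM1, the leukocyte adhesion molecule (distance 0.66), and APOBEC3Z3, a cytidine deaminase (0.86). Their own log2FC values were 1.05 and 1.34. For IRF8 the nearest genes lay farther away, namely ALDH2, the mitochondrial aldehyde dehydrogenase (1.02), SLC9A8 (1.09) and PSEN2 (1.16), with log2FC values of 1.20, 1.21 and 1.38. In the RefSeq table of the newer dog assembly UU_Cfam_GSD_1.0, RAD50 overlaps IRF1, TNPO3 lies within 2 kb of IRF5, BCL2L12 and SCAF1 within 2 kb of IRF3 and RNF31 within 2 kb of IRF9. IRF8 is overlapped by an uncharacterised long noncoding RNA (LOC119871926), and another (LOC119869532) lies within 2 kb of IRF2, neither of which was matched to a count. In each case reads could be shared depending on strand, and the strand setting of the counting is not given in the sources used here. RAD50 had at most 281 normalized read counts and a log2FC of 0.66. TNPO3 had 230 normalized read counts in late library 3, its lowest late value, where IRF5 was highest.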

How the data were processed

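QuantSeq 3′ libraries of 5 early and 5 late CCH were analysed. The authors trimmed reads with Cutadapt, aligned them with STAR to CanFam3.1, counted them with featureCounts in 2 rounds (the second for reads left unassigned, on genes extended downstream), spread multi-mapped reads over their locations, and deposited a normalized signal, namely counts divided by 1 size factor per library. Tool versions are not given in the sources used here. In each library all values above 0 (166096 values, 100%, tolerance 0.001 reads) came out as whole reads when divided by the smallest step, and these reads were recovered. Spreading of multi-mapped reads can give fractions, so the recovered reads may be rounded counts. A further 11 value columns fit no label here and stayed unused. Column names give the stage but not the sample, so libraries are numbered within a stage only as names. Each library is from a different dog.

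Genes reaching a value of 10 in 5 or more libraries entered limma 3.58.1 (mean-variance trend) on log2(value + 1), a scale that understates changes of low genes, with BY adjustment over all genes. limma was the main test because the deposited unit is a normalized one, although the recovered reads also allowed count tests. Among these was DESeq2 with BY, both of which the study used. The study's calls took DESeq2 log2FC values with shrinkage, whereas those here are without it, and its effect on the calls was not tested. edgeR 4.0.16 and DESeq2 1.42.0 on recovered reads in R 4.3.3, other scalings, pseudocounts, filters and the omission of single libraries were alternatives. The fits were tested on simulated data. Exact permutation tests of single genes were two-sided. Recovered reads assigned to genes numbered 2973125 to 4439709 per library, fewer than the trimmed reads the paper reports, and 3 reads corresponded to a value of 2.36 to 3.22. With no molecular identifiers, reads are not independent molecules, and this floor covers counting error only.

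The members and gene lists were chosen with earlier results of these data known. Outside the family, a list's called genes (at most 4) or otherwise its highest and lowest gene, STAT2, SPI1, IRF4 and the 3 genes of nearest profile to IRF1 and IRF8 (leaving out symbols that start with LOC) were named, apart from some genes that are not reported here. Marker sums add normalized read counts. RefSeq names of another assembly served only to find neighboring genes.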

Additional observations from a re-analysis of the deposited data

Results flagged for a closer look

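In 24 groups of 5 libraries (the level and the family share of each member, in each stage), the distance of an extreme library from the next one was taken relative to the spread from lowest to highest, and 3 groups exceeded the critical value of 0.71, where chance gives about 1.2. IRF5 stood out in early library 2 with a relative gap of 0.766 (215 against 463 in the next library) and in late library 3 with a relative gap of 0.875 (674 against 290). The share of IRF9 in the family stood out in late library 1 with a relative gap of 0.746 (8.22% against 5.33%).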

How the results depend on the processing

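No paired analysis was possible because no replicate number is tied to a column and early and late tumors are from different dogs. IRF7 was not analysed here. Each of the 6 members kept the sign of its log2FC under every alternative run, and no member was called lower under any. IRF1 and IRF8 were called only where the adjustment was BH or the test DESeq2, which gave 2 members called higher. Their log2FC values were 1.21 and 1.27 with BH adjustment of limma, 1.10 and 1.38 with DESeq2 under BY or BH, and 1.12 and 1.39 with edgeR under BH. The combinations of BH with edgeR and DESeq2 were added after seeing the data. BY is stricter than BH by construction, and the cause of the difference between the tests was not tested. Without single libraries, no member was called, and the log2FC ran from 0.94 to 1.40 for IRF1 (lowest without early library 1), 0.27 to 0.47 for IRF2, 0.41 to 0.54 for IRF3, -0.67 to -0.29 for IRF5, 1.09 to 1.54 for IRF8 and -0.40 to -0.11 for IRF9. Over all genes, limma called 131 higher and 138 lower. It called 685 and 436 with BH, and column total scaling moved the split to 169 and 95. edgeR called 81 higher, or 622 and 387 with BH, and DESeq2 480 and 330, or 783 and 523 with BH. Without single libraries there were 18 to 144 higher and 29 to 153 lower, fewest higher without late library 2 and fewest lower without early library 5. These counts moved by over 1.5 times without early library 1 or 5 or late library 1, 2, 4 or 5, and the count of higher genes also without late library 3. Each member had at least 142 reads in every library, and the effect of depth was not tested.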
